A study of Homo sapiens with 24 samples.

Results

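The libraries compared here were made from SW872 cells, a human liposarcoma line, that stably expressed either the YAP-TFE3 fusion or full-length TFE3. They are 6 of the 24 libraries of the series, 3 per group, and were taken by their group labels. Raised TFE3 counts in both groups were known when the comparison was set up. All 6 were collected 48 h after the cells reached confluence. Of 60279 genes counted, the 20730 that averaged 5 or more across these libraries were tested. The comparison asks what transcripts differ between cells that carry TFE3 joined to part of YAP and cells that carry TFE3 alone.

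The series profiled poly(A) RNA of SW872 cells that carried one of several constructs, each delivered by retrovirus. Each line was a pool of cells selected with G418, and every construct carried a Flag tag. The YAP-TFE3 cells expressed the first exon of YAP1 joined in frame to the later exons of TFE3, which keeps the TEAD-binding domain of YAP and the transactivation, basic helix-loop-helix and leucine zipper domains of TFE3. The TFE3 cells expressed the whole TFE3 protein. A pair of other groups is used only as a reference. The EV cells carried the vector with no insert, and the YAP5SA cells carried full-length YAP in which serines had been changed to alanine so that the Hippo kinases cannot restrain it, 3 libraries each and also 48 h after confluence. Per the study's methods the 3 libraries of a group are biological triplicates, each from cells transduced and selected separately, so p-values here measure the spread between such lines.

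TFE3 belongs to the MiT/TFE family of transcription factors, with TFEB, MITF and TFEC. These factors bind E-box-like sequences near genes for lysosomal enzymes, the lysosomal proton pump and autophagy, and they are held in the cytoplasm by a nutrient-sensing complex built on the Rag GTPases and folliculin. YAP does not bind DNA itself. It is carried to chromatin by the TEAD factors and switches on genes of growth, matrix and the cytoskeleton, among them CCN1 and CCN2, unless the Hippo kinases send it out of the nucleus. Fusions of YAP1 to TFE3 occur in a subset of epithelioid haemangioendothelioma, a vascular sarcoma.

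Library totals were 28239678 to 33384359 counts in the TFE3 group and 30331854 to 35287476 in the YAP-TFE3 group, and mitochondrial genes took 5.22 to 6.36% and 3.63 to 5.12% of them. Levels are given as CPM, the usual counts scaled to a common library size, here by the TMM method. A gene is said to be called, to rise or to fall where its adjusted p was under 0.05 (quasi-likelihood test of edgeR, Benjamini-Hochberg adjustment over all 20730 genes). Fold changes are on the log2 scale, YAP-TFE3 minus TFE3, followed by their standard error. In 49.1% of all tested genes the CPM of the 2 groups did not overlap. Genes named for the size of their change, over all genes or within a list, had to meet this condition. The third YAP-TFE3 library stood apart from its 2 partners. Its chi-square per degree of freedom against them was 63.8 and 50.4, where theirs was 9.98 and those among the TFE3 libraries were 12.9 to 23.1. In a fit that left it out, 3663 genes were called with at least a 2-fold difference. It moved the same way as its partners in 97.1% of them, with a median difference from the TFE3 mean that was 0.802 of theirs. The same ratio was 0.97 and 1.01 for replicates 1 and 2. Calls of genes reported here that changed without it are given both ways, while fold changes include it unless stated.

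TFE3 counts were raised over EV in both groups, which the choice of the groups already noted. TFE3 itself, at chrX:49028726-49043410 on the minus strand (GRCh38), stood at 357, 325 and 323 CPM in the TFE3 libraries and at 293, 322 and 226 CPM in the YAP-TFE3 libraries, against 109 to 129 CPM in EV and 173 to 200.2 CPM in YAP5SA, which carries no TFE3 construct. All 6 libraries were above every EV library. The fusion cells had the lower level of the 2, by a log2 fold change of -0.26 ± 0.10 (adjusted p = 0.0405), a call that was lost without the third YAP-TFE3 library (-0.12), without TFE3 replicate 1 (-0.21) and without TFE3 replicate 2 (-0.28). YAP1 was read at 164, 157 and 133 CPM with the fusion and at 113, 129 and 128 CPM with TFE3 (0.29 ± 0.10, adjusted p = 0.0176), a call lost without YAP-TFE3 replicate 1 (0.23) or 2 (0.26) and without TFE3 replicate 1 (0.23). The fusion carries only part of each gene, so a transcript of it gives each gene fewer bases to count than a full-length one, and reads from the construct and from the cells' own genes cannot be told apart in gene counts.

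Nearly as many genes fell as rose, but the large changes were almost all rises. Of 20730 genes, 9929 were called (47.9%), with 5270 higher (25.4%) and 4659 lower (22.5%) in YAP-TFE3 cells. Among the called genes, 2234 were at least 2-fold higher and 1173 at least 2-fold lower. At 8-fold or more the counts were 461 and 15, and at 32-fold or more 124 and 1. These are fitted folds, which for genes near 0 in one group depend on the model and set no bound. By counts alone there were 271 genes with at most 3 counts in every TFE3 library and a mean above that in YAP-TFE3, and 39 genes with the reverse. Protein-coding genes were called more often (53.8% of 14915) than lncRNA genes (34.2% of 3489). Without the third YAP-TFE3 library 10222 genes were called, 5342 higher and 4880 lower. With only the 2 groups in the fit, 7454 were called, 4287 higher and 3167 lower. Tested against a 2-fold change instead of against none, 1501 genes were called, 1241 of them higher, and scaling by total counts turned the split to 4468 higher and 5739 lower.

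The same fit set both groups beside the empty vector. With YAP-TFE3 against EV, 9954 genes were called (48%). With TFE3 against EV, 7 were called (0.0338%), all of them higher, with 807 at an unadjusted p under 0.05 and 15 called by DESeq2. These comparisons share libraries with the main one and are therefore given side by side only. In the Euclidean distance between libraries in log2 CPM, over the 500 genes of highest variance, TFE3 lay 14.7 from EV on average, close to the 14.2 among the TFE3 libraries themselves, whereas YAP-TFE3 lay 70.6 from TFE3.

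**Figure D1:**
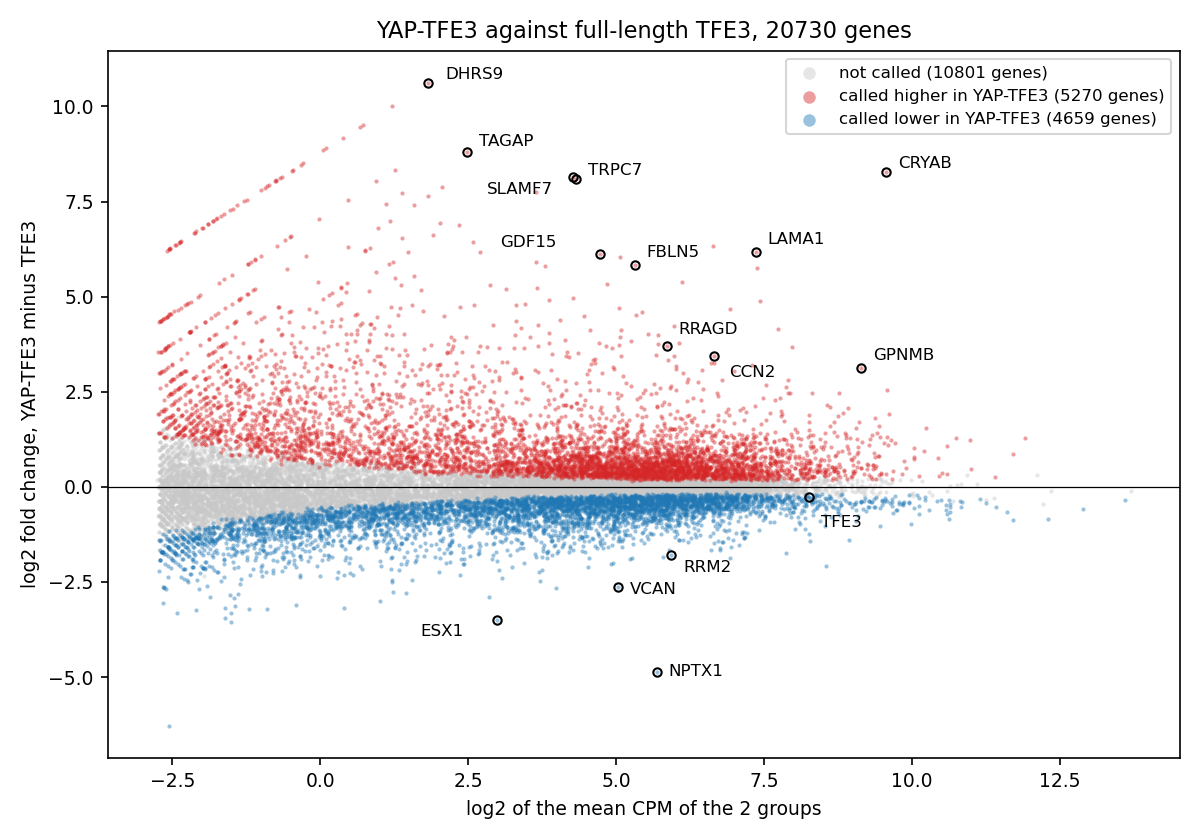
Each point is a gene, with the log2 of its mean CPM over both groups on the x axis and its log2 fold change (YAP-TFE3 minus TFE3) on the y axis. Red genes were called higher, blue genes lower and grey genes not called, and the changes beyond 3 on the log2 scale lie almost all above the line (461 against 15 called genes).

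Few genes were called in TFE3 against EV, and most of those were higher again with the fusion. Beside TFE3 itself, the 6 genes called in TFE3 against EV were RRAGD, GPNMB, RENBP, CLCN5, NMRK2 and SLC9A3. These calls are fragile: 1 gene was called in all without TFE3 replicate 3, without EV replicate 1 or without EV replicate 2, and 2 genes with TFE3 and EV fitted alone. In 5 of the 6 the YAP-TFE3 cells stood above the TFE3 cells again, and SLC9A3 was the exception.

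RRAGD is one of the Rag GTPases that sense amino acids at the lysosome. It stood at 2.97, 3.27 and 4.55 CPM in EV, at 6.70, 6.66 and 11.3 CPM in TFE3, and at 99.7, 102 and 122 CPM in YAP-TFE3. The 3 groups did not overlap, and the step from TFE3 to the fusion was a log2 fold change of 3.71 ± 0.18 (adjusted p = 7.35e-14), beside a TFE3 minus EV difference of 1.21. GPNMB, a transmembrane glycoprotein of lysosomes and melanosomes long used as a readout of MiT/TFE activity, was at 53.2 to 68.5 CPM in EV, 103, 82.5 and 161 CPM in TFE3 and 925, 993 and 1122 CPM in YAP-TFE3 (3.13 ± 0.17, adjusted p = 5.84e-13).

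RENBP, which encodes a renin-binding epimerase of amino sugars, was at 14.8, 9.25 and 17.3 CPM in TFE3 and 46.4, 54.2 and 39.7 CPM with the fusion (1.76 ± 0.18). CLCN5, an endosomal chloride/proton exchanger, went from 17.1 to 20.5 CPM up to 43.9 to 49.5 CPM (1.36 ± 0.10). NMRK2, a kinase of nicotinamide riboside, was at most at 0.0968 CPM in EV, at 0.408 to 0.908 CPM in TFE3 and at 7.67 to 8.82 CPM in YAP-TFE3 (3.75 ± 0.30). None of these 3 genes overlapped between the TFE3 and YAP-TFE3 libraries, which held for 49.1% of all tested genes. SLC9A3, a sodium/proton exchanger, was at 6.67, 7.29 and 8.65 CPM in TFE3 and at 11.3, 10.5 and 7.62 CPM in YAP-TFE3. Those libraries overlapped, and the difference of 0.38 ± 0.20 did not pass the test (adjusted p = 0.116), though it did without the third YAP-TFE3 library (0.54).

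Of the 11 MiT/TFE and folliculin-Rag genes tested, 8 were higher (72.7%, beside 25.4% of all genes) and 2 lower, which were TFE3 itself and TFEB, with a median log2 fold change of 0.50, beside a median of -0.016 over all genes tested. RRAGC, another of the Rag GTPases, was at 38.0, 35.8 and 35.0 CPM against 19.5, 19.5 and 24.2 CPM. FNIP2 and FNIP1, the folliculin-interacting proteins, differed by 0.76 ± 0.09 and 0.57 ± 0.15, FLCN, folliculin itself, by 0.50 ± 0.09 and RRAGB by 0.45 ± 0.11. RRAGA did not pass the test (-0.08 ± 0.09, adjusted p = 0.484). MITF, the factor of melanocytes, rose by 0.43 ± 0.13, a call lost without YAP-TFE3 replicate 1 (0.33), while TFEB fell, from 9.10 to 12.2 CPM down to 4.16 to 5.78 CPM (-1.01 ± 0.15, adjusted p = 7.43e-06). TFEC counts among the 8, but it reached at most 0.548 CPM in any of the 6 libraries.

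**Figure D2:**
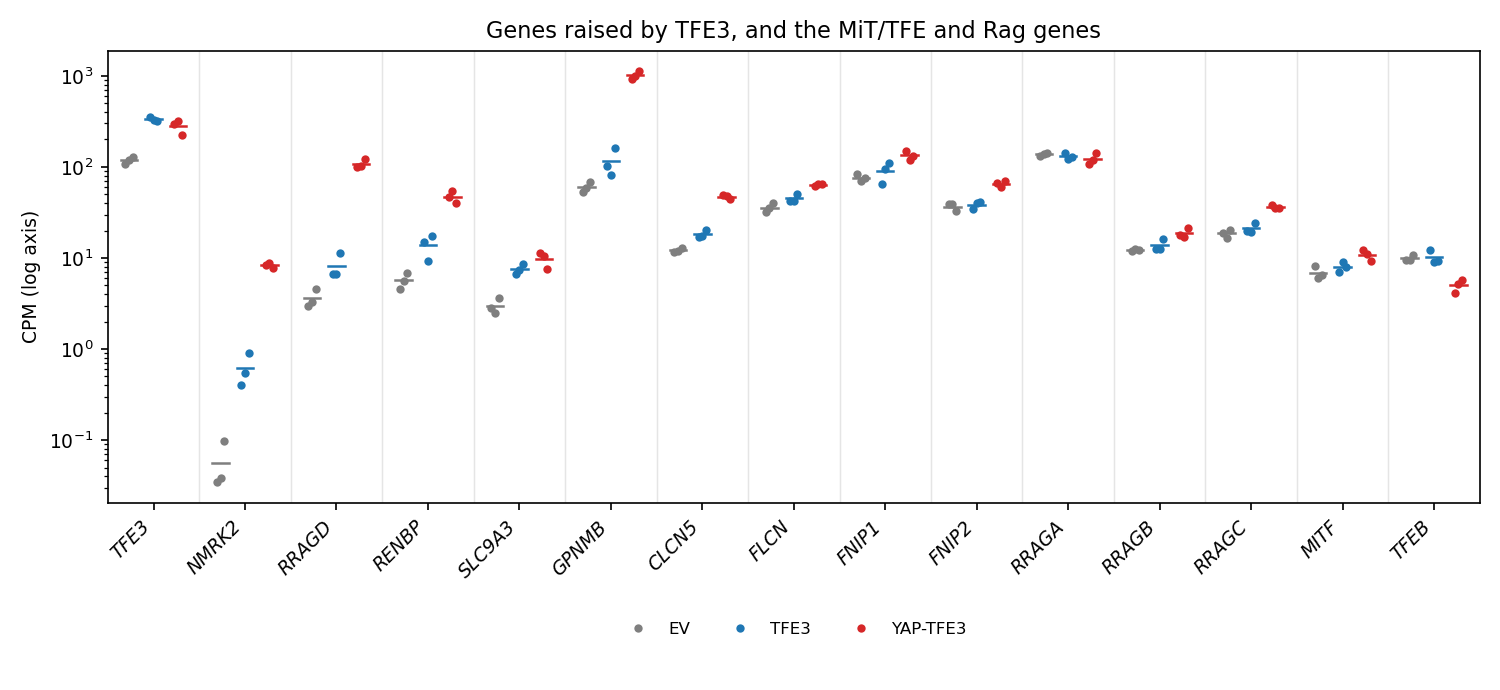
Points are single libraries and bars group means (n = 3) in CPM on a log axis, for EV, TFE3 and YAP-TFE3, with the genes that TFE3 raised on the left and the other MiT/TFE, folliculin and Rag genes on the right. RRAGD, GPNMB and NMRK2 step up from EV to TFE3 and again to YAP-TFE3, SLC9A3 does not separate TFE3 from YAP-TFE3, and TFEB is lower with the fusion.

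Promoter sequences of genes named here are shown because the 2 partners of the fusion have different recognition sequences. They come from RefSeq promoter windows on GRCh38.p14, which run from 250 bases before to 50 after the annotated start, 300 bases in all. A window was found for 127 of the 180 genes named by rule, and the search covered 35116 windows. The letters searched, on both strands, were CACGTG (the E-box that MiT/TFE factors bind), TCACATGA (the M-box, a variant), CATTCC (the TEAD site) and TGANTCA (the AP-1 site). No one of the 4 contains another. They were held by 7.26%, 1%, 14% and 7.71% of all windows. Each stretch below lies upstream of the start, is written 5′ to 3′ on the gene's strand, and has the matches in capitals.
GPNMB, chr7:23246625-23246734, plus strand, an AP-1 match then an M-box: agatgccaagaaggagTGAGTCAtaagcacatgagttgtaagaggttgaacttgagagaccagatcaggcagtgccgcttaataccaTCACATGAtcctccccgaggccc
RRAGC, chr1:38859823-38859922, minus strand, an AP-1 match then an E-box: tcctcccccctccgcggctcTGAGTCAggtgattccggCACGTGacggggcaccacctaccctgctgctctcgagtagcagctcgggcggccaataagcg
FNIP1, chr5:131797088-131797207, minus strand, 2 E-boxes: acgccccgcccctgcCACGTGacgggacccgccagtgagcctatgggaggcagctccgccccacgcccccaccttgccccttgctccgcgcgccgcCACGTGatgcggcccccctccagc
CCN2, chr6:131951443-131951557, minus strand, 3 TEAD sites read as the reverse complement GGAATG: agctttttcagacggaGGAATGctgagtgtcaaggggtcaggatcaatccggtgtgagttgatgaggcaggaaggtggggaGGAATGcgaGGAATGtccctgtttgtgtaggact
ANKRD1, chr10:90921193-90921322, minus strand, a TEAD site on each side of an AP-1 match: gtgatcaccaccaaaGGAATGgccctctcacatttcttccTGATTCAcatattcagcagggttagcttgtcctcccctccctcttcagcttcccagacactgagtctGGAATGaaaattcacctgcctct

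In GPNMB the M-box began 63 bases before the start, and in CCN2 the TEAD sites began 169, 104 and 95 bases before it. These 5 genes were picked from the named genes because their windows held a match, so the matches describe these promoters and are not a sample. A match is a stretch of letters and shows no binding.

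Lysosomal genes were called higher more often than lower. The lysosome degrades proteins, lipids and sugars with acid hydrolases, and the V-ATPase pumps in the protons they need. Of 46 hydrolases and activators tested, 28 were higher and 2 lower, with a median of 0.53. The lower ones were CTSK and GALNS, and the GALNS call (-0.29) was lost without YAP-TFE3 replicate 1 (-0.24), TFE3 replicate 1 (-0.23) or TFE3 replicate 3 (-0.25). Of 21 V-ATPase genes, of 22 listed, 13 were higher and 1 lower, with a median of 0.39. Of 25 lysosomal membrane proteins and transporters, 14 were higher and 5 lower (2 to 4 as single libraries were left out, median 0.39), and of 38 autophagy genes, 20 were higher and 1 lower (median 0.24). These shares of 60.9%, 61.9%, 56% and 52.6% stand beside 25.4% of all genes, and those lower (4.35%, 4.76%, 20% and 2.63%) beside 22.5%. Against EV, the medians of the 4 lists were 0.72, 0.44, 0.48 and 0.32 for YAP-TFE3 and 0.15, 0.061, 0.11 and 0.055 for TFE3. With TFE3 against EV no member of these lists was called, beside 0.0338% of all genes. Without the third YAP-TFE3 library, 26 hydrolases, 11 V-ATPase genes, 14 membrane genes and 18 autophagy genes were higher, and 4, 2, 4 and 3 were lower. In a fit of the 2 groups alone 13 autophagy genes were higher.

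CTSS, a cathepsin best known in antigen-presenting cells, had the largest rise of the named hydrolases. It stood at 14.4, 12.9 and 18.0 CPM in TFE3 and at 76.8, 78.1 and 89.6 CPM in YAP-TFE3 (2.43 ± 0.14, adjusted p = 1.12e-12). ASAH1, acid ceramidase, went from 71.4, 69.1 and 106 CPM to 232, 212 and 267 CPM (1.53 ± 0.13). Neither gene overlapped between the groups, which was a condition for naming them. ACP5, a tartrate-resistant acid phosphatase of osteoclasts and macrophages, rose by 1.44 ± 0.17, and its TFE3 minus EV difference of 0.78, at 33.4 to 58.6 CPM beside 21.8 to 33.4 CPM in EV, did not pass the test (adjusted p = 0.252).

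LAMP2, a glycoprotein that lines the lysosomal membrane, was at 418, 424 and 515 CPM against 147, 150.2 and 186 CPM (1.49 ± 0.11). SLC17A5, the sialic acid exporter, rose by 1.83 ± 0.14 and NPC1, the cholesterol exporter, by 1.40 ± 0.10. Among pump subunits, ATP6V1E1 was at 184, 184 and 221 CPM against 86.1, 82.2 and 94.5 CPM, a clear gap (1.17 ± 0.08). ATP6V1C1 and ATP6V1B2 rose by 1.21 ± 0.13 and 1.05 ± 0.08. The autophagy genes with the largest named rises were GABARAPL1 (1.90 ± 0.09) and WIPI1 (1.59 ± 0.11), which act in autophagosome formation, and OPTN, a cargo receptor (1.39 ± 0.08). GABARAP was the autophagy gene that fell (-0.92), a close relative of GABARAPL1 chosen here after its value was seen.

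Pigment cell genes are another set of MiT/TFE targets. Of 13 tested, of 16 listed, 6 were higher (46.2%, beside 25.4% of all genes) and 3 lower (23.1%, beside 22.5%, and 1 lower without YAP-TFE3 replicate 3 or TFE3 replicate 2). SLC45A2, a melanosomal transporter, rose by 3.19 ± 0.23 and RAB32, a GTPase of melanosome traffic, by 2.17 ± 0.12. TYRP1, an enzyme of melanin synthesis, fell from 9.64, 9.82 and 10.1 CPM to 2.77, 3.01 and 3.06 CPM (-1.74 ± 0.11, adjusted p = 6.16e-12).

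Genes that YAP and TAZ are known to drive were mostly higher with the fusion. None of them was called in TFE3 against EV, where only 0.0338% of all genes were. Of 22 YAP/TAZ targets, 16 were higher (72.7%, beside 25.4% of all genes) and 2 lower (DOCK5 and CCDC80, 9.09% beside 22.5%), with a median of 0.69, and the median of TFE3 against EV was -0.069. Without the third YAP-TFE3 library 18 were higher. Their summed level was 1217 to 1305 CPM in TFE3, 1228 to 1311 CPM in EV and 2451 to 2771 CPM in YAP-TFE3.

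CCN2, a secreted matricellular growth regulator and a standard readout of YAP, was at 15.9, 23.0 and 11.7 CPM in TFE3 and at 199, 211 and 143 CPM in YAP-TFE3 (3.45 ± 0.20, adjusted p = 9.43e-13). CCN1, its close relative, was at 38.4, 39.8 and 28.5 CPM against 139, 149 and 134 CPM (1.98 ± 0.11, adjusted p = 5.30e-13). Both were far apart between the groups. AMOTL2, an angiomotin that binds YAP in return, rose by 2.76 ± 0.11, and ANKRD1, a stress-responsive ankyrin repeat protein, went from 0.421 to 1.08 CPM up to 5.70 to 10.7 CPM (3.54 ± 0.41). AJUBA, a LIM protein that inhibits LATS kinases, was at 433, 464 and 307 CPM against 67.7, 60.7 and 66.2 CPM (2.63 ± 0.16).

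Within the Hippo pathway and its TEAD partners, 10 of 23 genes were higher (43.5%, beside 25.4% of all genes) and 5 lower (21.7%, close to the 22.5% of all genes). WWC1 and WWC2, adaptors of the LATS kinases, rose by 1.5 ± 0.17 and 1.53 ± 0.13. WWTR1, which encodes TAZ, fell from 183, 201 and 194 CPM to 128, 124 and 122 CPM (-0.63 ± 0.08, adjusted p = 4.70e-07). TEAD2 and LATS1 fell by 0.48 and 0.46 on the log2 scale.

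The YAP5SA libraries show where full-length YAP freed from the Hippo kinases puts the same genes, in a comparison added after the data were seen. YAP1 itself was at 250 to 260 CPM with YAP5SA and at 133 to 164 CPM with the fusion (YAP-TFE3 minus YAP5SA -0.74 ± 0.10). Whether this bears on the differences below was not tested. YAP-TFE3 against YAP5SA gave 10604 called genes (51.2%). CCN2 was higher still with YAP5SA, at 523, 471 and 486 CPM (YAP-TFE3 minus YAP5SA -1.42 ± 0.18, adjusted p = 4.24e-07). CCN1 at 729 to 744 CPM and ANKRD1 at 163 to 231 CPM also lay above the fusion, by log2 differences of -2.39 and -4.49. GPC4, a glypican, did not differ by the test between the fusion (17.7, 20.3 and 22.6 CPM) and YAP5SA (18.0, 17.3 and 19.9 CPM, adjusted p = 0.43), and both lay above the 1.41 to 1.95 CPM of TFE3. In other genes the fusion level was far above both. LAMA1, the laminin alpha 1 chain of basement membranes, was at 292, 314 and 368 CPM with the fusion, 4.63, 3.93 and 4.93 CPM with TFE3 and 11.6, 10.7 and 12.7 CPM with YAP5SA. FBLN5, an elastic fibre protein, was at 64.5, 69.3 and 101 CPM with the fusion, 1.05, 1.26 and 1.82 CPM with TFE3 and 6.57 to 8.58 CPM with YAP5SA. ITGB3, the integrin beta 3 chain, was at 95.1, 103 and 95.7 CPM, 5.94 to 6.29 CPM and 6.20 to 7.90 CPM in that order. The log2 differences of these 3 genes from TFE3 were 6.17 ± 0.14, 5.84 ± 0.21 and 3.99 ± 0.14, and from YAP5SA 4.80, 3.39 and 3.76 (adjusted p from 2.74e-18 to 2.40e-13).

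**Figure D3:**
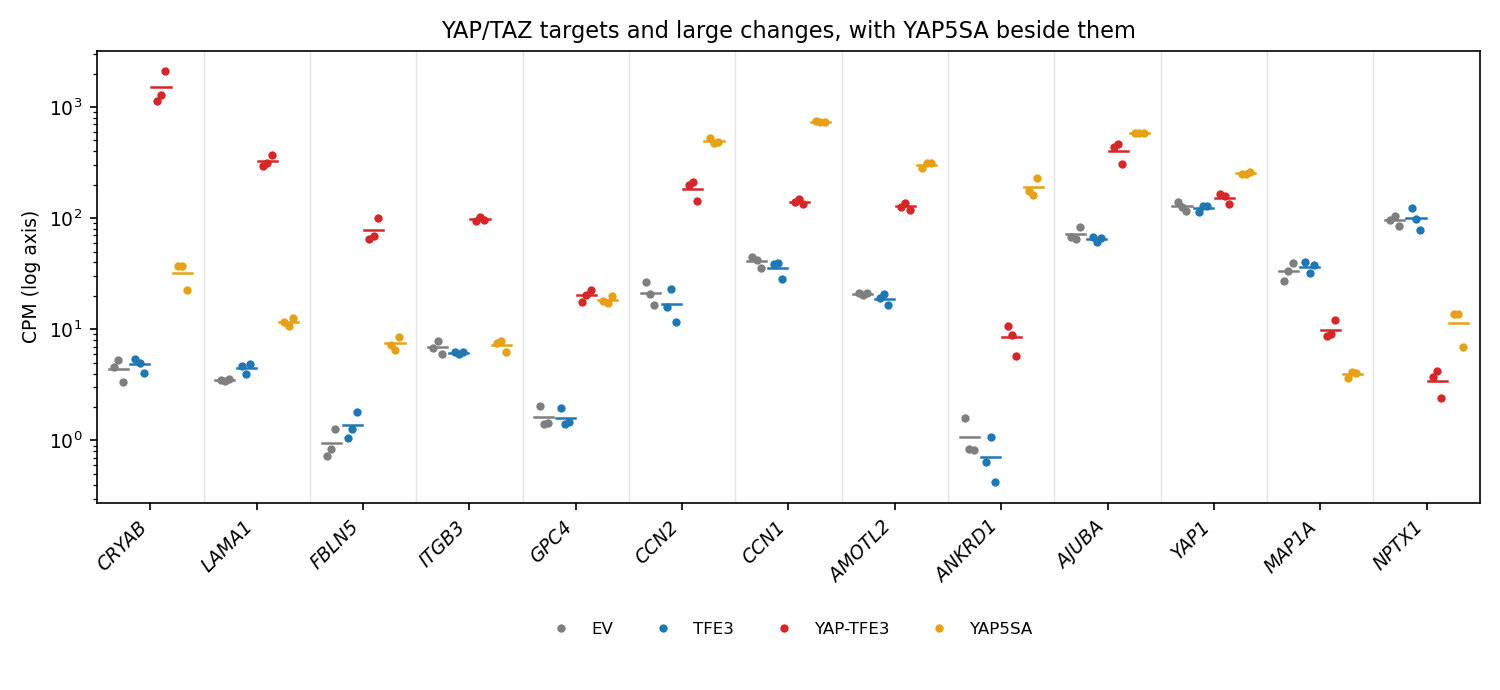
Points are single libraries and bars group means (n = 3) in CPM on a log axis, for EV, TFE3, YAP-TFE3 and YAP5SA. CCN1, CCN2, AMOTL2 and ANKRD1 are highest in YAP5SA, CRYAB, LAMA1, FBLN5 and ITGB3 are highest in YAP-TFE3, and MAP1A and NPTX1 are lower in both YAP groups than in EV and TFE3.

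The 10 largest rises among protein-coding genes with at least 100 counts on average and no overlap between the groups included DHRS9, TAGAP, CRYAB, SLAMF7, TRPC7, CMKLR2, CST2, TMEM144 and AP1M2. CRYAB, a small heat shock chaperone of lens and muscle at chr11:111908564-111923722, stood at 5.42, 5.01 and 4.08 CPM in TFE3 and at 1139.5, 1286 and 2096 CPM in YAP-TFE3 (8.28 ± 0.27, adjusted p = 3.80e-17). YAP5SA cells had 22.4 to 37.0 CPM. CRYAB overlaps 3 annotated genes on the other strand, and whether counting used strand is not given in the sources used here. DHRS9, a retinol dehydrogenase, had 0 counts in all TFE3, EV and YAP5SA libraries and 7.51, 8.14 and 5.55 CPM with the fusion, at least 77.3-fold higher than a floor of 3 counts per library.

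Several of these genes have known homes in other tissues. SLAMF7, a receptor of lymphocytes, was at 46.0, 43.1 and 26.5 CPM against 0.0900 to 0.194 CPM. TAGAP, a GTPase regulator of T cells, was at 11.9, 13.4 and 8.30 CPM against at most 0.0324 CPM. TRPC7, a calcium channel, was at 45.3, 41.7 and 33.3 CPM against 0.0972 to 0.204 CPM (8.10 ± 0.25). Every fusion library lay far above every TFE3 library in these 3 genes. Of 12 haematopoietic markers, 7 could be tested and 1 rose, ITGAM (14.3%, beside 25.4% of all genes). The summed level of these markers was 3.37 to 4.49 CPM in TFE3 and 3.64 to 5.81 CPM in YAP-TFE3. CMKLR2, a chemerin receptor, was at 32.6 and 34.0 CPM in the first and second fusion libraries and at 7.87 CPM in the third, against at most 0.180 CPM in TFE3.

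The 10 largest falls were NPTX1, ESX1, FAM111B, SCG2, VCAN, GNG4, RHBDL3, TF, CYSLTR2 and RGS14, and their changes were smaller. NPTX1, a pentraxin secreted by neurons at chr17:80466834-80477843, went from 123, 98.1 and 78.6 CPM to 3.71, 4.26 and 2.40 CPM (-4.86 ± 0.27, adjusted p = 5.73e-13). VCAN, the proteoglycan versican, went from 44, 50.6 and 74.7 CPM to 12.0, 7.30 and 8.25 CPM (-2.62 ± 0.22). SCG2, a secretogranin, went from 27.7, 32.1 and 21.8 CPM to 5.80, 4.91 and 2.20 CPM (-2.67 ± 0.27). In each of the 3 the highest fusion library was below the lowest TFE3 library, a condition of this ranking. Of 8 genes that the study followed by qPCR, leaving aside those it measured as knock-down targets, MAP1A, a microtubule protein, fell by 1.88 on the log2 scale. The others (CCN1, CCN2, AJUBA, FBLN5, LAMA1, GPC4 and SPP1) rose, and the study chose them with its own results in view. SPP1, the matrix phosphoprotein osteopontin, was at 393, 323 and 351 CPM against 98.5, 79.1 and 88.8 CPM (2.00 ± 0.21).

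**Figure D4:**
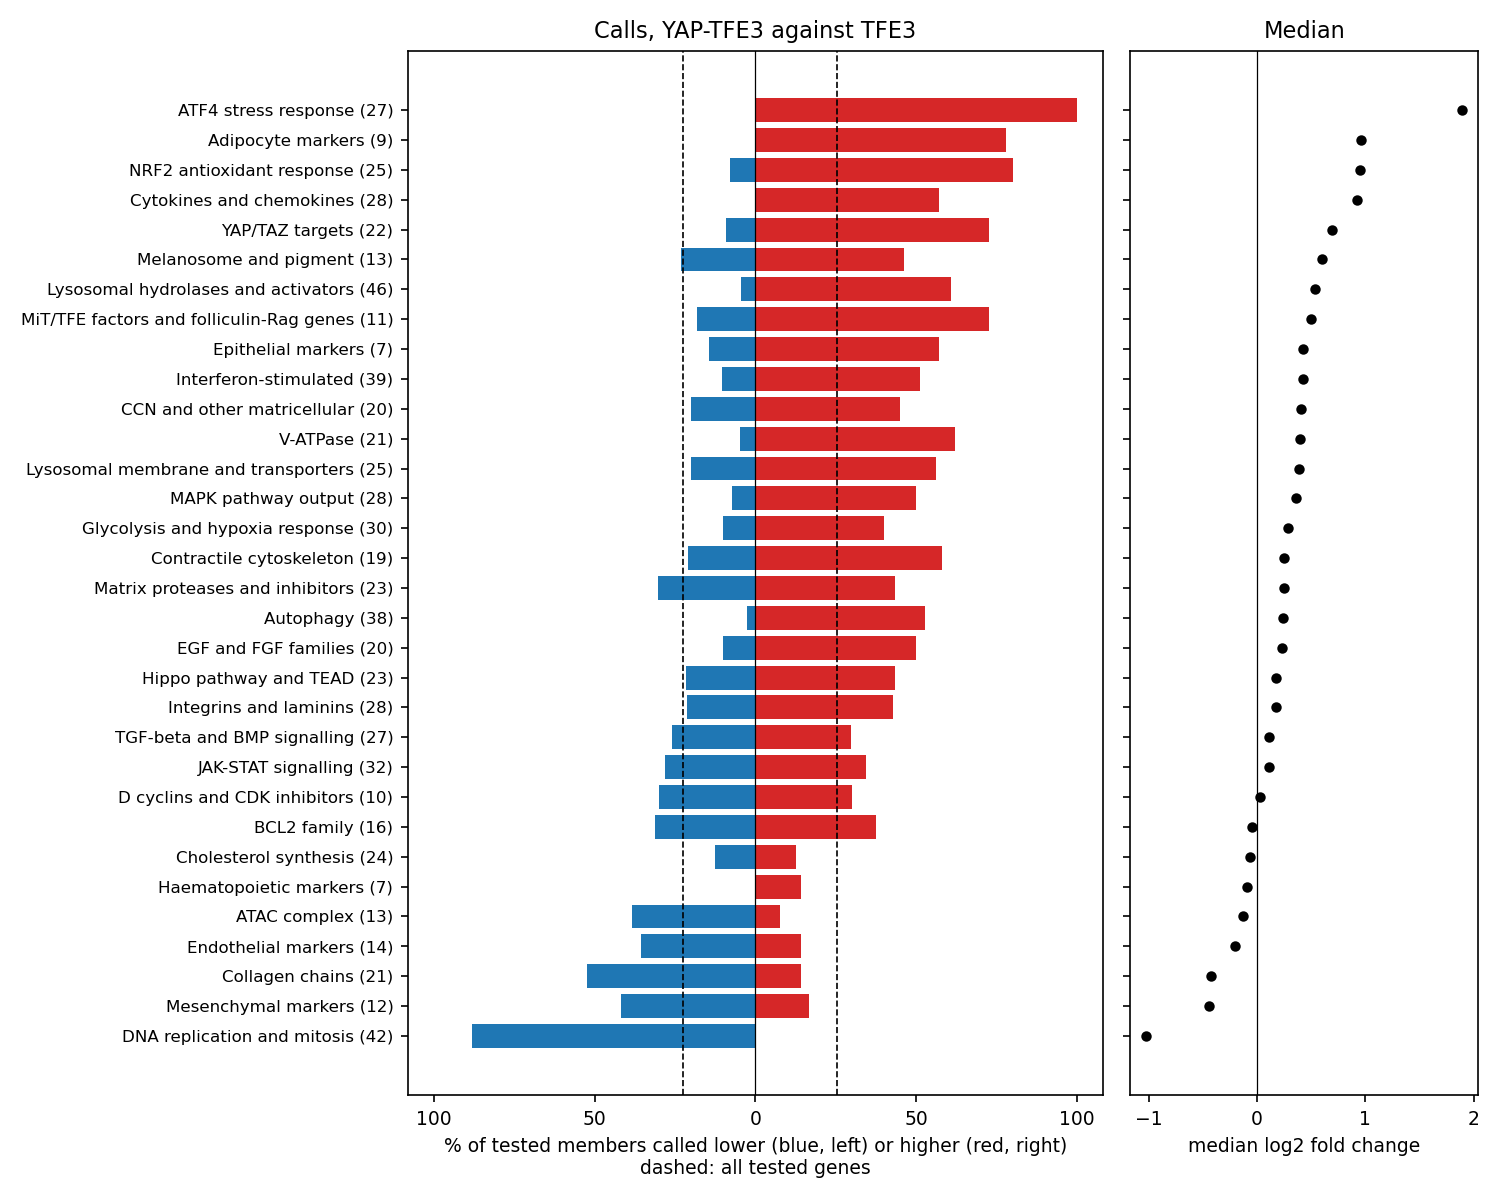
For each gene list other than the genes followed by qPCR, with its number of tested members in brackets, bars show the percentage called higher (red, to the right) and lower (blue, to the left) in YAP-TFE3, and points the median log2 fold change. Dashed lines mark the share over all tested genes (25.4% higher, 22.5% lower), and the ATF4 list and the DNA replication and mitosis list lie at the ends.

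Leaving aside the genes followed by qPCR, the largest median belonged to a stress response. ATF4 is the factor of the integrated stress response, which drives amino acid synthesis and import and tRNA charging when translation is limited. All 27 of its listed targets and partners were higher in YAP-TFE3 cells (100%, beside 25.4% of all genes), with a median of 1.89. Beside EV the median was 1.77 for YAP-TFE3 and -0.15 for TFE3. The third fusion library was the lowest here. The summed level was 2566 to 2959 CPM in TFE3, 11378 and 12314 CPM in the first and second fusion libraries and 6154 CPM in the third. In YAP5SA the sum was 9727 to 10385 CPM, so the rise was not particular to the fusion. All 27 were called without the third fusion library too, with a median of 2.22.

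STC2, a secreted glycoprotein of calcium balance, was at 37.0, 38.9 and 32.9 CPM in TFE3 and at 576, 605 and 212 CPM in YAP-TFE3 (3.68 ± 0.26, adjusted p = 2.81e-11). SLC7A11, the cystine importer, was at 5.68, 12.3 and 13.6 CPM against 173, 121 and 50.3 CPM (3.45 ± 0.46). ATF3, a factor that acts below ATF4, was at 5.82 to 6.67 CPM against 69.2, 71.8 and 25.2 CPM (3.15 ± 0.24). The third fusion library was lowest in all 3, and the groups did not overlap, which was a condition for naming them. GDF15, a stress-induced hormone of the TGF-beta family, followed with 66.1, 74.4 and 16.8 CPM against 0.540 to 0.932 CPM (6.12 ± 0.45).

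Genes of the NRF2 response, which protects against oxidants, were also higher, in 20 of 25 tested (80%, beside 25.4% of all genes), with 2 lower (8%, beside 22.5%) and a median of 0.95. Their summed level was 4814 to 5303 CPM in TFE3 and 8602 to 12689 CPM in YAP-TFE3. In YAP5SA it was 7042 to 7480 CPM, so a level above TFE3 was not particular to the fusion. OSGIN1, an oxidative stress-induced growth inhibitor, was at 143, 158 and 46.8 CPM against 15.5, 13.4 and 11.8 CPM (3.09 ± 0.27). AKR1C3, an aldo-keto reductase, was at 10.8, 11.8 and 9.22 CPM against 0.931 to 1.72 CPM (2.95 ± 0.25), though it has close paralogs whose reads the counting could split. KEAP1, the inhibitor of NRF2, fell by 0.46 on the log2 scale. Without the third fusion library 21 were higher and 2 lower.

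Genes of DNA replication and mitosis moved the other way. Of 42 tested, none was higher and 37 were lower, with a median of -1.02, beside 22.5% lower over all genes. The median of TFE3 against EV was -0.15, with none called, beside 0.0338% of all genes. RRM2, a subunit of ribonucleotide reductase, went from 91.4, 112 and 80.6 CPM in TFE3 to 14.7, 16.0 and 51.1 CPM in YAP-TFE3 (-1.79 ± 0.27, adjusted p = 7.22e-06). GINS2, part of the replicative helicase, went from 36.6, 37.5 and 24.1 CPM to 6.09, 6.55 and 17.6 CPM (-1.69 ± 0.25), and MCM10, a replication initiation factor, fell by 1.75 on the log2 scale. The third fusion library was the highest of its group in all 3 genes. That it lay below the lowest TFE3 library was a condition for naming them. Without the third fusion library 37 genes were lower as well, with a median of -1.09. RRM2, GINS2 and MCM10 then differed by -2.63, -2.37 and -2.87. In bulk RNA, fewer cells in cycle and less RNA per cell cannot be told apart. CCND1, cyclin D1, rose meanwhile from 111 to 124 CPM up to 252 to 264 CPM (1.15 ± 0.12). Of the CDK inhibitors, CDKN2B rose (1.68 ± 0.21), while CDKN2C (-1.16 ± 0.15) and CDKN2D (-0.57) fell.

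**Figure D5:**
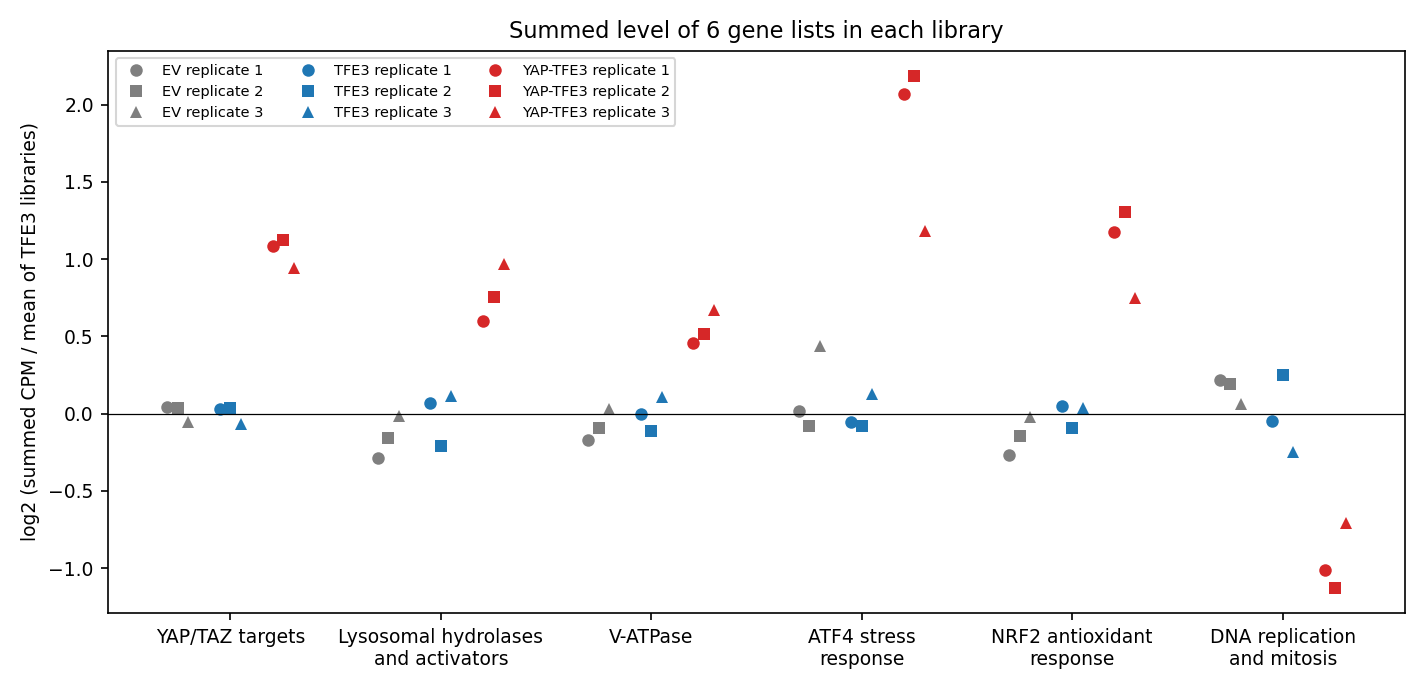
Each point is the summed CPM of a gene list in 1 library, as the log2 ratio to the mean of the TFE3 libraries, for EV, TFE3 and YAP-TFE3 and with a marker shape per replicate. The third YAP-TFE3 library (triangle) lies nearest to TFE3 for the ATF4, NRF2 and replication lists and farthest for the lysosomal hydrolases and the V-ATPase.

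The order of the fusion libraries was not the same for each list. For lysosomal hydrolases the third library had the highest sum, 12447 CPM beside 9636 and 10715 CPM, and TFE3 libraries had 5503 to 6884 CPM.

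Of 19 contractile genes tested, of 23 listed, 11 were higher (57.9%, beside 25.4% of all genes) and 4 lower (21.1%, close to the 22.5% of all genes). LMOD1, an actin nucleator of smooth muscle, was at 25.9, 29.1 and 40.3 CPM against at most 1.66 CPM (4.39 ± 0.22), and FLNC, an actin crosslinker, was at 1081, 1262 and 770.1 CPM against 336, 274 and 281 CPM (1.80 ± 0.13). TAGLN and MYH10 fell, by 0.96 and 0.68 on the log2 scale. Of 21 collagen chains, 3 were higher (14.3%) and 11 lower (52.4%, and 7 in a fit of the 2 groups alone), with a median of -0.43. Their summed level did not fall, at 3334 to 4027 CPM in YAP-TFE3 beside 3192 to 3713 CPM in TFE3. Against EV, the median was -0.20 for YAP-TFE3 and 0.14 for TFE3. COL8A1, a short-chain collagen of vessel walls, went from 46.3, 29.0 and 36.6 CPM to 8.25, 9.32 and 8.50 CPM (-2.10 ± 0.18), while COL12A1 rose from 56.0 to 64.2 CPM up to 259.7 to 271 CPM (2.11 ± 0.12).

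Of 28 cytokines and chemokines tested, of 36 listed, 16 were higher (57.1%, beside 25.4% of all genes) and none lower, with a median of 0.92, although 1 was called lower without the third fusion library. IL32, an inflammatory cytokine, was at 21.0, 27.7 and 24.1 CPM against 0.843 to 1.54 CPM (4.26 ± 0.29), and CX3CL1, a membrane-bound chemokine, was at 40.6, 49.7 and 34.8 CPM against 4.02 to 6.35 CPM (3.08 ± 0.19). IL6R, the receptor of interleukin 6, was at 59.4, 63.5 and 74.2 CPM against at most 11.1 CPM (2.65 ± 0.11). None of these overlapped, which naming them required. JAK-STAT genes, with 11 of 32 higher (34.4%) and 9 lower (28.1%), and TGF-beta and BMP genes, with 8 of 27 higher (29.6%) and 7 lower (25.9%), lay nearer to the shares of all genes. Interferon-stimulated genes were higher in 20 of 39 (51.3%) and lower in 4 (10.3%, and 7 genes without the third fusion library). They were led among the named ones by IFI27 (4.48 ± 0.32, and 3.84 without that library), which was at 22.1, 32.0 and 72.6 CPM with the fusion.

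In the BCL2 family, which sets the threshold for cell death, 6 of 16 genes rose (37.5%, beside 25.4% of all genes) and 5 fell (31.2%, beside 22.5%, and 2 genes without TFE3 replicate 1, 3 without YAP-TFE3 replicate 1). BCL2L11, which encodes the death-promoting BIM, went from 38.9, 37.2 and 39.4 CPM to 11.6, 12.3 and 14.0 CPM (-1.60 ± 0.10, adjusted p = 5.50e-12). BMF, of the same BH3-only class, fell by 1.18 on the log2 scale, and BCL2, which opposes them, rose by 1.53 ± 0.18. Of 13 genes of the ATAC complex, a histone acetyltransferase complex, 1 rose (7.69%) and 5 fell (38.5%, beside 22.5% of all genes, and 3 genes without TFE3 replicate 1). KAT2A, its acetyltransferase, went from 104, 103 and 98.8 CPM to at most 55.8 CPM (-0.93 ± 0.08, adjusted p = 1.81e-09).

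Cell type markers were read to place these cells. Mesenchymal markers summed to 7359 to 9333 CPM in TFE3 and 5574 to 7322 CPM in YAP-TFE3, and 5 of 12 were lower (41.7%, beside 22.5% of all genes) and 2 higher (16.7%, beside 25.4%). In EV they summed to 6533 to 7482 CPM, a range that held fusion replicates 1 and 2 (7217 and 7322 CPM). The median was -0.44 against TFE3 and -0.14 against EV. Adipocyte markers, of the lineage from which liposarcomas take their name, were higher in 7 of 9 tested (77.8%), with PPARG at 98.6, 99.2 and 61.6 CPM against 50.2 to 56.4 CPM. Epithelial markers summed to 159 to 224 CPM against 249 to 363 CPM, with 4 of 7 higher (57.1%) and 1 lower (14.3%). Endothelial markers summed to 372 to 488 CPM against 335 to 369 CPM, with 2 of 14 higher (14.3%) and 5 lower (35.7%, and 2 genes without TFE3 replicate 1).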

How the data were processed

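Poly(A) RNA was sequenced as stranded paired-end libraries. The authors demultiplexed reads (bcl2fastq, per the submitters' processing notes) and processed them in bcbio-nextgen against hg38 with Ensembl annotation. The deposited files hold raw read counts per gene and library. The methods name Salmon and tximport for gene-level counts beside an alignment, but not which route made these whole-number files, and the strand setting is not given in the sources used here. Genes with a mean of 5 or more counts over the 6 libraries were fitted with edgeR 4.0.16 (TMM scaling, quasi-likelihood test) over all 24 libraries, with 1 mean per group, and contrasts were taken between groups. The self-test on simulated counts, in which 200 genes were changed, called 70.8% of those changed by 2-fold. Depth was 28239678 to 35287476 counts, and counts of 0 to 3 were read as a floor. Named genes were the MiT/TFE and Rag genes, the genes that TFE3 raised and those the study followed by qPCR. Added to them were the 10 largest rises and falls, and up to 3 genes per list and direction. Both of these kinds had to be called and protein-coding, with a mean of 100 counts and no overlap of CPM between the groups. Positions are from GENCODE on GRCh38. Alternatives were another filter, scaling, test or set of libraries. The members and lists were chosen with earlier results of these data known. The study itself tested with DESeq2, used here as an alternative (version 1.42.0). Some genes that the rule names are not reported here.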

Additional observations from a re-analysis of the deposited data

How the results depend on the processing

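Across 15 alternatives, no called gene among the 180 named changed sign, 139 of their 2698 values lost the call, 80 of them in the test against a 2-fold change, and 1 gained it. YAP-TFE3 against TFE3 gave 8606 to 10222 called genes as single libraries were left out. It gave 7454 with only those 2 groups in the fit, where 13 named genes lost the call. A test against a 2-fold change, which asks for more, gave 1501 (1241 higher, 260 lower) in place of 9929. For YAP-TFE3 against EV it gave 1574 and for YAP-TFE3 against YAP5SA 1813. The 7 genes of TFE3 against EV became 0 in that test, 13 with no filter, 2 with those groups fitted alone, 15 with DESeq2, and 1 to 12 as single libraries were left out (12 without TFE3 replicate 2, 1 without TFE3 replicate 3, EV replicate 1 or EV replicate 2). The cause of these moves was not tested.

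With the replicate number as a block, YAP-TFE3 against TFE3 gave 10004 called genes, 9805 of them also called without the block, and all of those in the same direction. YAP-TFE3 against EV gave 9996 and TFE3 against EV 5, and no named gene lost its call. Same-numbered libraries did not deviate together (correlations -0.28, -0.023 and 0.037) and the numbers were not taken to pair them. YAP-TFE3 replicate 1, for one, correlated best with TFE3 replicate 2 (0.24). Depth limits genes near the floor, whose fitted folds set no bound, and 3 libraries per group limit small changes. The simulated test called 39.1% of genes changed by 1.5-fold. It changed 200 genes, where 9929 were called in the data, so its shares need not hold for the data.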
